A study of Mus musculus with 10 samples.

Results

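This report describes 304 cells of the aged mouse cochlea that carry a shared panel of transcripts, among 7272 cochlear cells kept and 17696 cells kept from both inner ear organs. A cell was a member when it had a UMI (1 counted RNA molecule) in at least 3 of 7 genes, Fxyd2, Gm525, Kcnk2, Ppp1r1a, Cox7a1, Nat8f1 and Syngr1, and in fewer than 3 of 6 hair cell genes, Myo6, Myo7a, Pou4f3, Tmc1, Kncn and Gfi1. The members were thus chosen by measured values, and they are called panel cells here. The working name of the group refers to Otos (otospiralin), and the markers given with it are Fxyd2, Gm525, Otos, Kcnk2 and S100b. Those 5 genes did not mark a single set of cells, so the cells are named by their leading genes and not as one cell type.

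The libraries were 10x Genomics 3′ single-cell preparations of cochlea and of vestibule from CBA/J mice aged 22 months, an inbred strain used to study ageing of the inner ear. No allele, transgene or treatment was given for any group. Mice of both sexes were used, each library pooled several mice, and the cells had been released with collagenase. Of the 5 libraries deposited for each organ 4 were used: cochlear replicate 2 shared 1313 of its barcodes with replicate 1, vestibular replicate 2 shared 1633, and over the genes their chi-square was 0.125 and 0.120, below what sampling alone gives, where unrelated replicates 1 and 4 gave 32.6 and 51.2. Each such pair was counted as 1 sample. Replicates 1, 3, 4 and 5 held 2738036, 26974948, 5349308 and 5452292 UMIs in the cochlea and 4150642, 24104850, 10318267 and 9482901 in the vestibule. Younger animals were not analysed here.

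Fibrocytes of the spiral ligament and spiral limbus lie beside the sensory epithelium of the cochlea. As background, they are known for carrying potassium away from the hair cells toward the stria vascularis: sodium pumps and cotransporters take the ion up, gap junctions pass it from cell to cell, and potassium channels release it. Otospiralin is a small secreted protein made by such fibrocytes. Fxyd2 is a regulatory subunit of the sodium pump, Kcnk2 is a leak potassium channel, S100b binds calcium, and Gm525 is a predicted protein-coding gene.

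In mouse genome build GRCm38, which the files use, Otos lies at chr1:92644218-92648841 on the minus strand, Gm525 at chr11:89073841-89093040 on the plus strand, Fxyd2 at chr9:45399669-45410278 on the plus strand, Kcnk2 at chr1:189207930-189402273 on the minus strand and S100b at chr10:76253853-76261159 on the plus strand. All 5 are protein-coding genes. 3′ libraries count the last exons of each transcript, and Gm525, Kcnk2 and S100b overlap other annotated genes on the opposite strand, Kcnk2 also on its own, so their UMIs carry some doubt. Nat8f1 belongs to a family of close copies, so its UMIs are uncertain.

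Panel cells made up 23 of 571 cochlear cells in replicate 1, 177 of 5070 in replicate 3, 46 of 695 in replicate 4 and 58 of 936 in replicate 5. The shares were 4.03% (95% exact binomial interval 2.57 to 5.98), 3.49% (3.00 to 4.03), 6.62% (4.89 to 8.73) and 6.20% (4.74 to 7.94), with a mean of 5.08% ± 1.55 (SD, n = 4). These intervals cover counting error only. Replicate 3 was lowest and yet supplied 177 of the 304 members. Panel cells had a median of 1759, 6349, 7201 and 4825.5 UMIs in the 4 libraries, against 1898.5, 2019, 3147 and 2280 in the other cells. After each cell was thinned to 1000 UMIs the shares were 2.98%, 1.58%, 3.88% and 4.06%. Thinning only takes UMIs away, so a lower share in all 4 libraries is no result. At equal depth replicate 3 remained the lowest.

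The number of panel genes per cell did not fall steadily in the cochlea. There were 114 cells with 3 panel genes, 48 with 4, 59 with 5, 76 with 6 and 7 with all 7. The same rule picked 666 of 10424 vestibular cells, where the numbers dropped from 515 with 3 genes to 106 with 4, 33 with 5, 12 with 6 and 0 with 7. Just outside the threshold, 381 cochlear cells with 2 panel genes had 15.8 CPM of Fxyd2 and 1437 CPM of Otos, where CPM is a gene's share of all UMIs of the summed cells, times 1e+06. Just inside it, the 114 cells with 3 genes had 127 CPM of Fxyd2 and 3484 CPM of Otos. Otos stayed near that level in the cells with 4 and 5 genes, at 4022 and 3581 CPM, while Fxyd2 was at 416 and 2300 CPM. The 76 cells with 6 genes had 7476 CPM of Fxyd2 but 253 CPM of Otos, and the 7 cells with all 7 genes had 8160 and 1126 CPM. Fxyd2 is part of the rule, so its rise with the number of panel genes is a description of the choice. Otos is not counted by the rule. Which cells can hold 6 or 7 panel genes still depends on the genes in the panel, so its values are descriptions too.

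**Figure D1:**
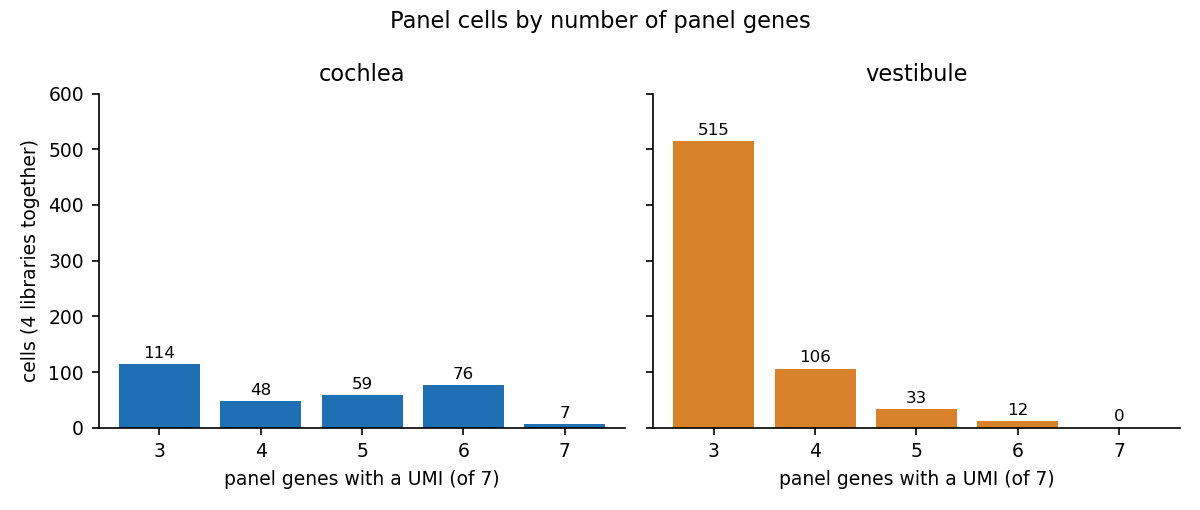
Number of panel cells (vertical axis, 4 libraries together) by the number of the 7 panel genes with a UMI (horizontal axis), in the cochlea and the vestibule. The cochlea has a second peak of 76 cells at 6 genes, and the vestibule falls from 515 cells at 3 genes to 0 at 7.

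All 5 named markers were higher in panel cells than in the other cells of every cochlear library. Fxyd2, Kcnk2 and Gm525 are rule genes, and all values of this paragraph are descriptions. Fxyd2 was at 2890, 2506, 4738 and 6918 CPM in panel cells of replicates 1, 3, 4 and 5, and at 2.79 to 10.2 CPM in the other cells. Kcnk2 was at 3060, 1183, 1775 and 2273 CPM, against 14.0 to 28.2 CPM. The 2 sets of values were far apart in each library for both genes. Otos was at 747 CPM in replicate 1, 1123 CPM in replicate 3, 3001 CPM in replicate 4 and 5443 CPM in replicate 5, against 188 to 504 CPM in the other cells. Gm525 was at 9.97, 122, 109 and 603 CPM, against 6.45 to 14.7 CPM. Otos and Gm525 therefore differed between libraries far more than Fxyd2 did, and replicate 1 was the lowest for both.

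S100b was at 1086, 1259, 1561 and 2140 CPM in panel cells, against 145 to 291 CPM in the other cells. UMIs of Fxyd2 were found in 50.3% of panel cells and in 2.46% of 407 macrophage-like cells, chosen as cells that should lack these genes. For Gm525 the shares were 22.0% and 1.97%, for S100b 89.8% and 28.3%, and for Otos 152 of 304 cells and 29.0%. The median depth was 5718 UMIs in panel cells and 2548 in the macrophage-like cells. Since 29.0% of cells not expected to make otospiralin held an Otos UMI, single Otos UMIs were not read as expression, and 10 UMIs were required below.

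**Figure D2:**
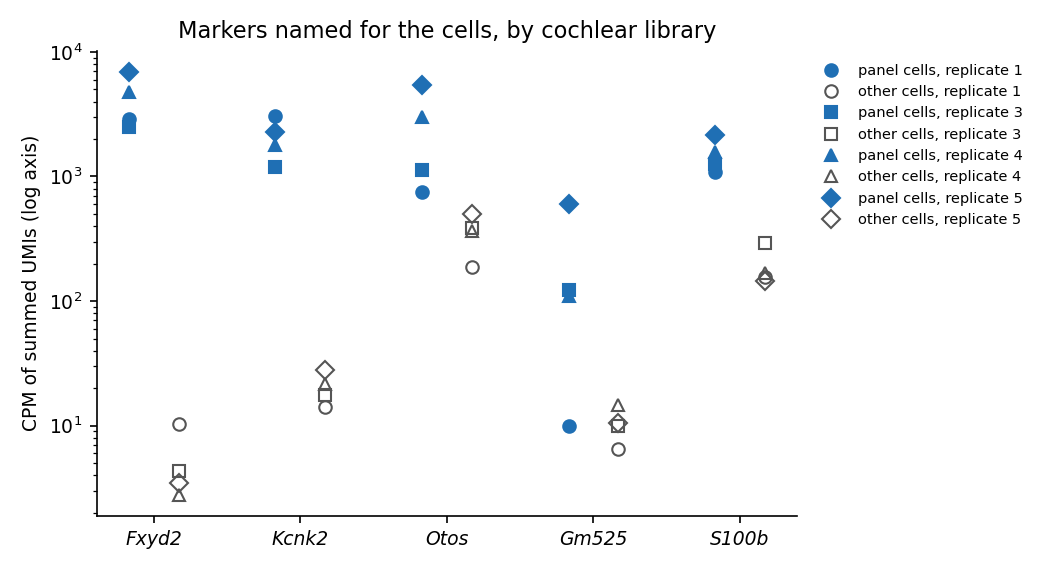
Level of the 5 named markers (CPM of summed UMIs, log axis) in panel cells (filled) and in all other cells (open) of the 4 cochlear libraries, 1 symbol per replicate. Fxyd2 and Kcnk2 lie far above the other cells in each library, while Gm525 in replicate 1 lies at 9.97 CPM, beside the other cells.

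Fxyd2 is one of the genes the rule counts and Otos is not, so their shares inside the rule are descriptions of the choice. The rule took in 101 of 101 cochlear cells with at least 10 Fxyd2 UMIs and 98.9% of all Fxyd2 UMIs. Of 160 cochlear cells with at least 10 Otos UMIs, 50 (31.2%) were panel cells: 3 of 6 in replicate 1, 19 of 97 in replicate 3, 8 of 20 in replicate 4 and 20 of 37 in replicate 5. The other cochlear cells rich in Otos lay outside the rule, 45 of them with no panel gene at all.

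Within the 304 cells, Fxyd2 and Gm525 rarely met. Fxyd2 had a UMI in 153 cells and Gm525 in 67, with 9 cells holding both, while 137 cells held Fxyd2 together with Kcnk2. Of the 50 cells with at least 10 Otos UMIs, 43 held Gm525 and 12 held Fxyd2. Across the 304 cells, Spearman's rho was 0.58 between Fxyd2 and Kcnk2, 0.62 between Otos and Gm525, 0.37 between Otos and S100b, and −0.09 between Fxyd2 and Otos. The cells share libraries and differ in depth, and the rule itself shapes which genes meet, so these values are descriptions. With each cell thinned to 1000 UMIs, 129 cells held Fxyd2, 46 held Gm525 and 4 held both.

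**Figure D3:**
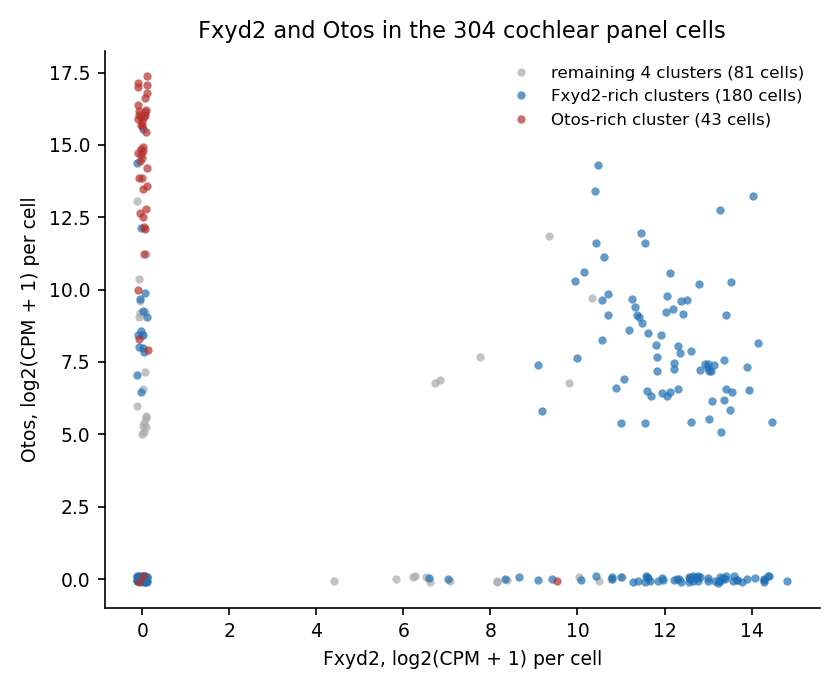
Fxyd2 (horizontal axis) against Otos (vertical axis) as log2(CPM + 1) in each of the 304 cochlear panel cells, shifted slightly at random so that points do not hide each other. Of the 43 cells of the Otos-rich cluster, 42 have no Fxyd2 UMI and stand at the left, 31 of them above 10000 CPM of Otos and 3 of the 43 with none. Of the 180 cells of the Fxyd2-rich clusters, 132 spread along the Fxyd2 axis and 48 have no Fxyd2 UMI, 2 of these above 10000 CPM of Otos.

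Clustering without the 13 rule genes and the named markers split the 304 cells into 7 clusters, and all cells are accounted for below. Clusters 1 and 2 were rich in Fxyd2 as sums and held 180 cells, 20, 96, 31 and 33 in replicates 1, 3, 4 and 5. A Fxyd2 UMI was found in 79 of the 119 cells of cluster 1 and in 53 of the 61 of cluster 2, so that 48 of the cells called Fxyd2-rich here had none. Cluster 3 was rich in Otos and held 43 cells, 1, 17, 6 and 19 in the same libraries. Clusters 4 to 7 held the remaining 81 cells. At 1000 UMIs per cell, 75.0% of the Fxyd2-rich cells and 55.8% of the Otos-rich cells still met the rule, against 3.70% of the remaining cells, whose median depth was 10684 UMIs. Markers of another cell type (UMIs in at least 3 of a list) were found in 23 Fxyd2-rich cells, 0 Otos-rich cells and 58 remaining cells. The stromal and border-like lists were left out of this count here and below. The count was not adjusted for depth, whose median was 5542 UMIs in Fxyd2-rich cells and 2065 in Otos-rich cells.

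The Fxyd2-rich cells came in 2 clusters that differed in depth and in their mix of libraries. Replicates 1, 3, 4 and 5 gave 5, 65, 24 and 25 cells to cluster 1 and 15, 31, 7 and 8 to cluster 2. Cluster 1 had 119 cells with a median of 4155 UMIs, 7278 CPM of Fxyd2 and 2355 CPM of Kcnk2. Cluster 2 had 61 cells with a median of 11278 UMIs, 5665 CPM of Fxyd2 and 3170 CPM of Kcnk2. Genes leading cluster 2 were Kctd12, a subunit associated with GABA-B receptors (2743 CPM against 499 CPM in the other panel cells), Lpar1, a receptor for lysophosphatidic acid (319 against 90.2 CPM), Igfbp5, a secreted binding protein of insulin-like growth factors (8143 against 2638 CPM), and Sox9, a transcription factor of otic and cartilage cells (846 against 284 CPM). The first gene of cluster 1 was the hemoglobin gene Hbb-bs at 5400 CPM, and in all Fxyd2-rich cells Hbb-bs was at 168, 5664, 7.77 and 35.7 CPM in replicates 1, 3, 4 and 5. Replicate 3 alone was high. Other genes leading cluster 1 included Lars2 (596 against 210 CPM in the other panel cells), AY036118 (481 against 179 CPM), Neat1 (450 against 170 CPM) and Gm42418 (8506 against 3620 CPM). The part of library, of red cell RNA or of RNA quality in the split between clusters 1 and 2 was not tested.

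Cluster 3 had the otospiralin profile. Its 43 cells had 35147 CPM of Otos, 3185 CPM of Gm525, 8807 CPM of S100b and 2774 CPM of Ppp1r1a, an inhibitor of protein phosphatase, but a single UMI of Fxyd2 and 9 UMIs of Kcnk2 among 160441. In the 3 libraries with more than 1 such cell, replicates 3, 4 and 5, Otos was at 28672, 72124 and 27836 CPM and Gm525 at 3402, 2487 and 3292 CPM. In Fxyd2-rich cells of replicates 1, 3, 4 and 5, Otos was at 286, 454, 174 and 732 CPM and Gm525 at 5.6, 21.6, 5.18 and 32.7 CPM. The groups did not overlap for either gene. For Otos this was fixed by the level that defined the Otos-rich group and Gm525 is a rule gene, so both are descriptions of the choice. Otos in the Fxyd2-rich cells was near the level of the other cochlear cells given above.

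Sequence before the start of 3 genes that were high in cluster 3 is shown because cells rich in one of them were rich in the others. These are the 250 bases before the RefSeq start of Otos (chr1:92648842-92649091, minus strand), Gm525 (chr11:89073591-89073840, plus strand) and S100b (chr10:76253586-76253835, plus strand) on GRCm38.p6, 5′ to 3′ along the gene's strand, with matches to the CCAAT box in capitals, which read in reverse complement where the match is on the other strand.
Otos: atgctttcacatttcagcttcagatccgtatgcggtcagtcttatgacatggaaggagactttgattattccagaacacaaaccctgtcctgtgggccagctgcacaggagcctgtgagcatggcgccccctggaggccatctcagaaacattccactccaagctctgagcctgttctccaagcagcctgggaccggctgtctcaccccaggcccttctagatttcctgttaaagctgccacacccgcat
Gm525: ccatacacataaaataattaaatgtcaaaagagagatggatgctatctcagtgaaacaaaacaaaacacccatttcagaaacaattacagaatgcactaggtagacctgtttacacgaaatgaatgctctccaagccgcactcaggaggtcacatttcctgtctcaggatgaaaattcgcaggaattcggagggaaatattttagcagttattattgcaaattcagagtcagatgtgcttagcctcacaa
S100b: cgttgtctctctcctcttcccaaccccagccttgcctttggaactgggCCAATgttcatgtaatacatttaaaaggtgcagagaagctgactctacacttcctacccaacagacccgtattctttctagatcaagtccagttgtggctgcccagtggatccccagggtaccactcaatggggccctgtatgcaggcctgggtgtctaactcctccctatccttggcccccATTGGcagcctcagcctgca
Both strands were searched for 6 motifs that did not overlap in these windows. The TATA box, spelled TATAAA, was held by 12.4% of 32851 RefSeq promoters of the same length. The CCAAT box, spelled CCAAT, was held by 33.8%. The GC box, spelled GGGCGG, was held by 32.7%. The octamer, spelled ATGCAAAT, was held by 1.60%, the SOX motif, spelled AACAATG, by 3.29%, and the T-box motif, spelled AGGTGTGA, by 1.12%. The S100b window had 2 matches to the CCAAT box, 1 on each strand, and the other letters were not found in the 3 windows. Of the 9 genes among the markers and the panel, 7 had a promoter entry.

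Clusters 4 to 7 carried genes of other cell types. In cluster 4 (27 cells) the leading genes included Vmo1, Epcam, an adhesion molecule of epithelia, and Epyc, a proteoglycan of supporting cells, with Epyc at 2672 CPM against 27.8 CPM in the other panel cells. Cluster 5 (24 cells) was led by Emilin2, Otor and Ptn, secreted proteins, with 3533 CPM of Coch, the matrix protein cochlin. In it 3 of 6 border-like markers, Emilin2 among them, 3 of 6 stromal markers and 2 of 6 endothelial markers were at least 2-fold higher (as CPM + 20) than in the other panel cells and had a UMI in at least 25% of its cells. By the count that leaves out stromal and border-like markers, 8 of the 24 cells had markers of another cell type. Cluster 6 (17 cells) was led by Dct, with Mlana and Tyr, genes of pigment cells, and cluster 7 (13 cells) by Calb2, Snap25 and Nefh, genes of neurons. By the measure used for cluster 5, cluster 6 was higher in 5 of 7 marginal cell markers and 4 of 6 intermediate (pigment) cell markers. It was also higher in 2 of 6 glial markers and 1 of 6 bone markers. Of clusters 4 to 7, 67 of 81 cells had exactly 3 panel genes. Every cell of clusters 6 and 7 had markers of another cell type.

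Levels of transport genes in the Fxyd2-rich and Otos-rich cells are given side by side with no test, since the clusters were made from these same values. Over 3107 genes at 50 CPM or more in either group, 1024 were more than 2-fold higher in the Fxyd2-rich cells and 175 in the Otos-rich cells, with a median log2 ratio of 0.49, so that the scale itself leaned to the Fxyd2 side. Of 6 genes of chloride cotransport at that level, 4 were more than 2-fold higher in the Fxyd2-rich cells and 2 in the Otos-rich cells. Of 5 acid-base genes the counts were 0 and 2, and of 2 gap junction genes 0 and 0. Atp1b1, the beta subunit of the sodium pump, was at 2257 to 3468 CPM in the 4 libraries of Fxyd2-rich cells and at 2136, 788 and 1902 CPM in Otos-rich cells of replicates 3, 4 and 5. Fxyd6, another regulator of the pump, was at 1151 to 1758 CPM against 56.7, 0 and 24.4 CPM.

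Slc12a2, the cotransporter that takes up sodium, potassium and chloride, was at 129, 52.2, 75.2 and 56.5 CPM in Fxyd2-rich cells and at 284, 829 and 439 CPM in Otos-rich cells. Slc4a11, a membrane transporter mutated in corneal dystrophy with hearing loss, was at 0 to 11.9 CPM in Fxyd2-rich cells and at 1588, 539 and 1634 CPM in Otos-rich cells. Slc4a10, a sodium-coupled bicarbonate transporter, was at 0 to 7.63 CPM against 321, 41.5 and 171 CPM. The groups did not overlap for these 3 genes. Slc4a4, the sodium bicarbonate cotransporter, had 54 UMIs (32.0 CPM) in the Fxyd2-rich cells and 0 in the Otos-rich cells, where a count of 0 allows up to 18.7 CPM.

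Other transport genes were present in both kinds of cells. Gjb2 and Gjb6 form the gap junctions of the cochlea, and both are deafness genes. Gjb2 was at 1859 to 4336 CPM in Fxyd2-rich cells and at 995 to 1390 CPM in Otos-rich cells. Gjb6 was at 638 to 1490 CPM and at 707 to 1326 CPM, so its values overlapped. Car14, a membrane carbonic anhydrase, was at 635 to 1266 CPM and 456 to 605 CPM, and Car3, a cytosolic one, at 1371 to 1457 CPM and 1782 to 3914 CPM. Pou3f4, the transcription factor of otic mesenchyme whose loss causes deafness, was at 405 to 734 CPM and at 244 to 332 CPM.

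Secreted genes were found on both sides. Of 19 genes of the secreted fibrocyte list at 50 CPM or more in either group, 6 were more than 2-fold higher in Fxyd2-rich cells and 7 in Otos-rich cells. Ptgds, prostaglandin D synthase, was at 8757, 36209, 33857 and 35963 CPM in Fxyd2-rich cells and at 127067, 99731 and 113309 CPM in Otos-rich cells. Coch was at 478 to 678 CPM against 4353 to 6881 CPM, and Trf, transferrin, which is not on the list, at 44.8 to 62.5 CPM against 1512 to 3109 CPM. Replicate 1 was the lowest Fxyd2-rich library for Ptgds. On the Fxyd2 side, Igfbp5 was at 3909 to 13530 CPM against 166 to 1707 CPM. Of genes not among those 6, Dkk3, a secreted relative of Wnt antagonists, was at 580 to 1104 CPM against 18.9 to 73.2 CPM, and Hhatl at 1519 to 1726 CPM against 435 to 1073 CPM. The median log2 ratio of the list was 0.01 (Fxyd2-rich over Otos-rich), beside 0.49 over all genes. Of 33 respiratory chain genes 7 were more than 2-fold higher in the Fxyd2-rich cells and 0 in the Otos-rich cells (21.2% and 0%), and of 12 immediate early and stress genes 7 and 0 (58.3% and 0%), beside 33% and 5.63% of all genes at that level. The share of respiratory chain genes on the Fxyd2 side was thus below that of all genes.

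**Figure D4:**
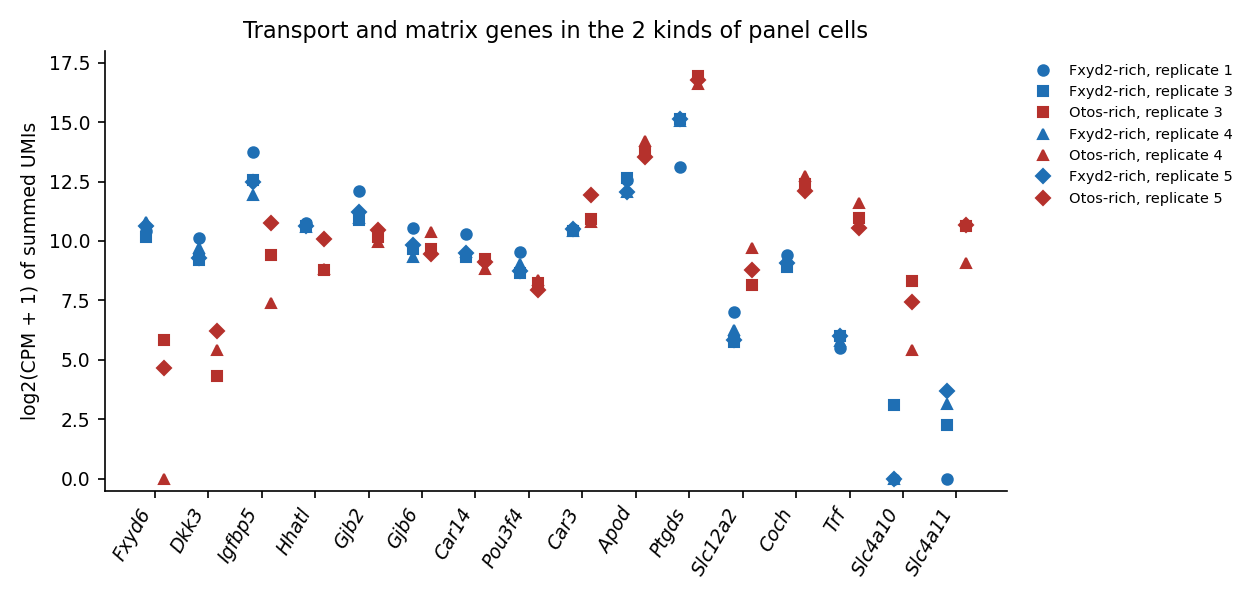
Levels of 16 genes as log2(CPM + 1) of summed UMIs in Fxyd2-rich (blue, 4 libraries) and Otos-rich (red, 3 libraries) panel cells, 1 symbol per replicate. Fxyd6 and Dkk3 are high in the Fxyd2-rich cells, Slc4a11 and Trf in the Otos-rich cells, and Gjb6 overlaps.

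The other panel genes were not all divided in this way. Cox7a1, a respiratory chain subunit typical of muscle, was at 877 CPM in Fxyd2-rich cells together and 611 CPM in Otos-rich cells, and Nat8f1, of a family of N-acetyltransferases, at 591 and 355 CPM. Among genes outside the rule that led the panel cells over all other cochlear cells were Scrg1 (133 ± 46.3 CPM, SD, n = 4, against 4.62 ± 3.96), Actn2, an actin crosslinker of muscle (81.6 ± 19.6 against 3.8 ± 3.21), Map2k6, a kinase upstream of p38 (165 ± 44.8 against 8.19 ± 0.46), Aspa, which splits N-acetylaspartate (97.0 ± 26.2 against 7.10 ± 4.41), Hhatl (1196 ± 323 against 95.3 ± 17.5), Dkk3 (587 ± 277 against 44.9 ± 6.40) and Prodh, a proline oxidase (102 ± 32.4 against 8.29 ± 1.66). These genes were higher in each of the 4 libraries. The 10 most abundant transcripts of nuclear genes in panel cells were Malat1, Ptgds, Igfbp5, Fth1, Apod, Gm42418, S100a1, Fxyd2, Fbxo2 and Apoe, of which S100a1, Fth1, Gm42418 and Fbxo2 were lower than in the other cells of each library.

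Nuclear genes of the respiratory chain were high as a group. Cox7a1, a subunit of this chain, is a rule gene, and its part in these values through the choice of cells was not tested. Of 33 such genes, 32 were higher in panel cells than in the other cells of all 4 libraries, where over 4898 genes at 50 CPM or more in a library 20.5% were higher in all 4 and 34.5% lower, and the median log2 ratio was 0.96. Over the 4898 genes the median was −0.18, with 391 genes above 1 and 713 below −1; of the 33, 15 were above 1. Atp5b, the beta subunit of ATP synthase, was at 897, 795, 895 and 775 CPM in panel cells against 274 ± 55.8 CPM (SD, n = 4), and Ndufa4 at 1256, 3024, 3291 and 4102 CPM against 1194 ± 410 CPM. Of 22 genes of energy supply in muscle, 19 were detected and 13 were higher in all 4 libraries (11 of the 12 at 50 CPM or more), among them Ckb, a creatine kinase (1438 ± 328 against 363 ± 161 CPM), Cox8b (148 ± 64.1 against 27.1 ± 23.8 CPM) and Ppargc1a, a regulator of mitochondrial synthesis (210 ± 123 against 27.3 ± 10.6 CPM). Ckm, Pgam2 and Mb, defining genes of skeletal muscle, had 0 UMIs. The median share of mitochondrial UMIs was 9.76%, 10.8%, 4.37% and 10.1% in panel cells and 4.69%, 8.19%, 2.47% and 4.51% in the other cells, and its part in these values was not tested.

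Of 13 gap junction genes 2 were higher and 3 lower in panel cells of all 4 libraries, and both genes at 50 CPM or more were higher, beside 20.5% of all genes at that level. Gjb2 was at 2173 ± 1292 CPM (SD, n = 4) in panel cells against 419 ± 107 CPM in the other cells. Replicate 1 was the highest, at 3997 CPM. Of 28 transcription factors, 11 were higher in all 4 libraries, including Pou3f4 (413 ± 164 against 101 ± 44.3 CPM) and Tbx18 (219 ± 115 against 56.1 ± 19.2 CPM), and 4 were lower. Of the 14 factors at 50 CPM or more, 10 were higher and 3 lower, beside 20.5% and 34.5% of all genes at that level. Of 22 collagens, 1 was higher and 10 lower in all 4 libraries. Only 4 of them reached 50 CPM, of which 0 were higher and 1 was lower, beside 34.5% of all genes at that level, and Col1a1, Col6a1, Col6a3 and Col14a1 had 0 UMIs.

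Markers of other cell types in panel cells differed between libraries. Dct, a pigment cell enzyme, was at 0, 1134, 0 and 852 CPM in replicates 1, 3, 4 and 5. The 6 neuron markers summed to 0, 931, 710 and 2.15 CPM, and the 8 supporting cell markers, led by Epyc, to 404, 371, 590 and 719 CPM. The 6 macrophage markers summed to 4.98, 110, 46.1 and 2.15 CPM, and the 6 granulocyte markers to 15, 12.9, 0 and 0 CPM with Ngp and Ltf at 0. The 5 red cell markers summed to 249, 5086, 3782 and 55.8 CPM. Replicates 3 and 4 held the red cell and neuronal signal.

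The same rule picked cells with a different mix of panel transcripts in the vestibule, which bears on every comparison of the organs. Fxyd2 had a UMI in 5.56% of the 666 vestibular panel cells against 50.3% in the cochlea, Gm525 in 58.3% against 22.0%, and Ppp1r1a in 92.5% against 69.1%. Cox7a1, a subunit of the respiratory chain, was found in 24.3% against 76.6%, and Kcnk2 in 38.9% against 68.4%. Nat8f1 was found in 56.9% against 68.8% and Syngr1 in 54.8% against 83.6%. Fxyd2 with Kcnk2 was found in 23 vestibular and 137 cochlear panel cells. Among all cells kept, Gm525 had a UMI in 12.2% to 20.6% by vestibular library and in 1.75% to 4.59% by cochlear library. For Fxyd2 it was 0.577% to 1.14% and 2.90% to 5.47%. The share in macrophage-like cells given above is of the cochlea only, so background RNA may enter the vestibular shares. Other markers moved with the organ too: in vestibular replicates 1, 3, 4 and 5 the red cell markers summed to 102, 11866, 16470 and 11015 CPM in panel cells, the granulocyte markers to 0, 579, 689 and 1873 CPM and the macrophage markers to 55.2, 249, 376 and 81.9 CPM, and the median mitochondrial share was 3.8%, 6.69%, 2.42% and 4.51%. A difference between the organs in these cells and a difference in the makeup of the cells cannot be told apart.

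UMIs were summed over the panel cells of each library and compared between 4 cochlear and 4 vestibular libraries by edgeR's quasi-likelihood test with Benjamini-Hochberg adjustment. Of 5998 genes, leaving out the 13 rule genes, 570 (9.5%) passed an adjusted p of 0.05, 273 higher in the cochlea (4.55%) and 297 higher in the vestibule (4.95%). For 495 genes (8.25%) the libraries of the organs also did not overlap. Without the cells that bear markers of other types, 902 passed. With the replicate number as a block, 857 genes passed, among them 567 of the 570. With at least 5 panel genes required, 66 genes passed. In that fit alone a library could have fewer than 10 cells, and vestibular replicates 1, 3, 4 and 5 had 4, 15, 13 and 13. Leaving out vestibular replicate 3 or 4 gave 316 or 328 genes.

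Of the named markers outside the rule, S100b was lower in cochlear panel cells. It was at 1086, 1259, 1561 and 2140 CPM in the cochlea and at 4473, 4148, 3515 and 3057 CPM in the vestibule (log2 fold change −1.41 ± 0.32, SE, edgeR adjusted p = 0.011). The organs did not overlap. Otos was at 747 to 5443 CPM in the cochlea and at 2324, 3658, 3708 and 2492 CPM in the vestibule (log2 fold change −0.27 ± 0.52, edgeR adjusted p = 0.81), so the organs overlapped. With at least 4 panel genes required, or after thinning, S100b no longer passed, and with at least 4 panel genes the sign for Otos turned.

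The 10 genes with the largest differences toward the cochlea were picked among calls whose libraries did not overlap. Epyc was at 339, 281, 562 and 704 CPM in the cochlea and had 1 UMI in the vestibule, a pooled ratio of 1141 (95% counting interval from 204). Of its 1216 UMIs in cochlear panel cells, 1154 lay in clusters 4 to 7, and it was at 1554 CPM in the other cochlear cells. Tdrd12, which led cluster 4 with Epyc, was at 62.7 to 119 CPM in the cochlea with 1 vestibular UMI. Foxf2, a forkhead factor of mesenchyme, was at 54.8, 27.5, 23.1 and 23.6 CPM in the cochlea and had 0 vestibular UMIs, at least 26.0-fold higher against a floor of 3 UMIs over the vestibular group. Nkx6-1, a homeobox gene, was at 34.3 to 69.8 CPM against 0 to 3.09 CPM (log2 fold change 4.13 ± 0.47), and Cdh6, a cadherin, at 34.6 to 99.7 CPM against 0 to 4.25 CPM (4.29 ± 0.50). Id2, an inhibitor of helix-loop-helix factors, was at 209 to 538 CPM against 12.7 to 32.8 CPM (3.68 ± 0.35), and Clca2 at 25.2 to 99.7 CPM against 0 to 12.7 CPM (3.82 ± 0.67). Nat8l, which makes N-acetylaspartate, Gm14964 and Phyhipl completed the set.

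Of the 10 genes with the largest differences toward the vestibule, Spink8, a serine protease inhibitor, was at 193 to 344 CPM in the vestibule and at 0 to 2.15 CPM in the cochlea (log2 fold change −7.57 ± 0.46). Rbp4, the retinol carrier, was at 754 to 1483 CPM against 0, 22.3, 0 and 2.15 CPM (−6.83 ± 0.65). Cochlear replicate 3 set this value, which was −10.14 without it and then rested on very few cochlear UMIs. Ucma, a secreted matrix protein of cartilage, was at 1602 to 3849 CPM against 9.97 to 129 CPM (−5.63 ± 0.57). Cacna1e, a calcium channel, was at 189 to 323 CPM against 1.65 to 10.7 CPM (−5.91 ± 0.44). Sox8, a transcription factor, was at 109 to 234 CPM against 0 to 10.7 CPM (−4.97 ± 0.45). Cd79a, known as a B cell receptor chain, was at 137 to 404 CPM against 0 to 9.96 CPM (−4.99 ± 0.49), and it made up nearly all of the 6 lymphocyte markers, which summed to 404, 146, 206 and 153 CPM in the vestibule. Zic4, Slc13a3, Slc30a10 and Lama1 completed the set. The 20 genes of both directions had edgeR adjusted p-values between 5.1e-07 and 0.0023. Many of these differences were also present outside the panel cells. Of the 20 genes, 13 could also be tested between the organs in other stromal cells, described below, and all 13 passed there in the same direction, among them Foxf2 (log2 fold change 7.89), Cdh6 (4.28), Spink8 (−6.69) and Rbp4 (−7.14). The test of the difference between the cell populations passed for 2 of the 20, Epyc and Ucma. For Epyc the difference was 6.18, toward the cochlea in panel cells. For Ucma it was 3.14, as the organs differed less in panel cells than in other stromal cells (log2 fold change −8.88). In that test neither gene passed with at least 4 panel genes, or without cochlear replicate 5 or vestibular replicate 3 or 4. Ucma also did not pass with the replicate block in place of the library block (3.15, edgeR adjusted p = 0.070).

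**Figure D5:**
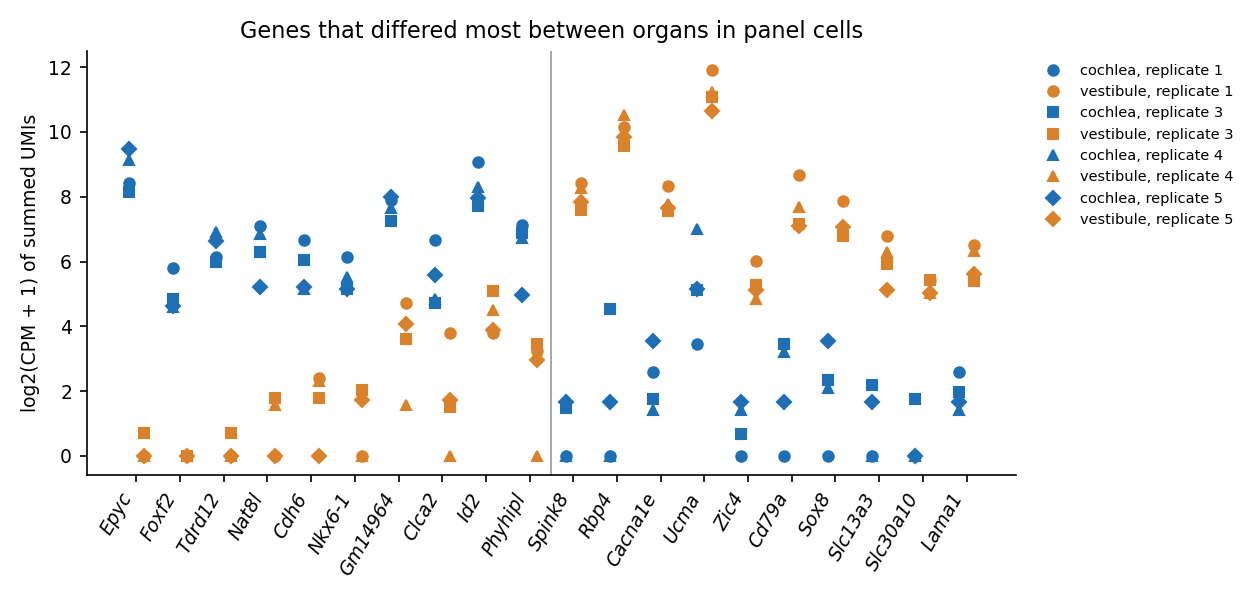
Levels as log2(CPM + 1) of summed UMIs in panel cells of the 4 cochlear (blue) and 4 vestibular (orange) libraries for the 20 genes with the largest organ differences, 10 in each direction, 1 symbol per replicate. The genes were picked so that the 2 organs do not overlap, and Foxf2 lies at 0 in all 4 vestibular libraries.

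Some genes of energy metabolism were higher in the cochlea, in counts that depended on single libraries and on the rule. Cox7a1, a subunit of the respiratory chain, is a rule gene found in more of the cochlear than of the vestibular panel cells, as given above. Its part in these values through the choice of cells was not tested. Of 33 nuclear respiratory chain genes tested, 12 were higher in cochlear panel cells, none was lower and 21 did not pass, beside 4.55% of all genes called toward the cochlea, with a median log2 fold change of 0.85 against 0.02 over all genes. Of 12 tested genes of energy supply in muscle, 8 were higher, none lower and 4 did not pass, with a median of 1.12. Ppargc1a was at 394, 130, 170 and 148 CPM in the cochlea and at 51.0, 43.3, 35.6 and 68.3 CPM in the vestibule (log2 fold change 1.91 ± 0.34, edgeR adjusted p = 0.0023). Atp5b was at 775 to 897 CPM against 246 to 464 CPM (1.13 ± 0.25), Ckb at 962 to 1711 CPM against 437 to 872 CPM (1.27 ± 0.31) and Pygm, muscle glycogen phosphorylase, at 26.4 to 42.9 CPM against 7.42 to 11.9 CPM (1.79 ± 0.34). With at least 4 panel genes required, 0 of 33 and 3 of 11 passed, and with at least 5, 0 of 33 and 2 of 10, where their medians were 0.36 and 0.58. Calls over all genes fell too: toward the cochlea 64 of 4030 passed with at least 4 panel genes, 37 of 2737 with at least 5 and 117 of 6151 without vestibular replicate 3. Ckb and Atp5b did not pass at 4 or 5 panel genes. With the replicate block, 23 of 33 and 8 of 12 passed. Single libraries decided these counts: leaving out 1 gave from 0 (without vestibular replicate 3) to 31 (without cochlear replicate 1) of the 33, 6 without cochlear replicate 3, and 1 or 2 without cochlear replicate 4 or 5 or vestibular replicate 1 or 4, while their median stayed between 0.70 and 1.07. Of the 12 muscle genes 3 passed without vestibular replicate 3, 4 without cochlear replicate 4 or 5 (of 13 tested without replicate 5) or vestibular replicate 1, and 5 without vestibular replicate 4. The mitochondrial share was higher in cochlear panel cells of each replicate, and under a limit of 10% mitochondrial UMIs 21 of the 33 passed. Ckb did not pass without cochlear replicate 4 or 5 or vestibular replicate 1, 3 or 4, and Pygm and Atp5b without vestibular replicate 3.

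Secreted genes were called in both directions. Of 24 tested, 9 were higher in vestibular panel cells, 2 in the cochlear ones and 13 did not pass, beside 4.95% and 4.55% of all genes, and the median log2 fold change of the 24 was −0.27. With at least 4 panel genes required, 5 and 2 of 20 passed, beside 109 and 64 of 4030 genes. Coch was at 618, 1029, 735 and 1185 CPM in the cochlea and at 14698, 11530, 10279 and 9749 CPM in the vestibule (log2 fold change −3.77 ± 0.37, edgeR adjusted p = 2.4e-05), and the difference was −1.77 with at least 5 panel genes (edgeR adjusted p = 0.0078). Ptgds was at 8302 to 46143 CPM against 91676 to 143447 CPM (−2.16 ± 0.52, edgeR adjusted p = 0.016), and Apod, a lipid carrier, at 3620 to 5492 CPM against 9716 to 15726 CPM (−1.40 ± 0.32). Apod did not pass with at least 4 panel genes (−0.88, edgeR adjusted p = 0.15), with at least 5, with 0 hair cell genes or after thinning, and neither Apod nor Ptgds passed with no filter on low counts. Igfbp5 was higher in the cochlea, at 2864 to 12090 CPM against 1204 to 1297 CPM (2.06 ± 0.39), as was Tnxb, a tenascin (3.04 ± 0.57).

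Among genes of the sodium pump, Atp1b1 (log2 fold change 2.03 ± 0.34) and Fxyd6 (1.64 ± 0.30) were higher in the cochlea and Atp1b2, another beta subunit, was higher in the vestibule (−1.64 ± 0.31). Atp1b1 did not pass with at least 4 panel genes, and Atp1b2 with at least 5. Among 28 mesenchymal factors, 16 were tested, of which 2 were higher in the cochlea, 3 in the vestibule and 11 did not pass, beside 4.55% and 4.95% of all genes. Sox9 (1.61 ± 0.41) and Nr2f1 (1.03 ± 0.29) were higher in the cochlea, and Zic1 (−3.53 ± 0.36), Zic4 (−5.11 ± 0.52) and Meis2 (−2.19 ± 0.43) in the vestibule. Sox9 did not pass without vestibular replicate 1, 4 or 5 and was at 0.97 without cochlear replicate 1. It also did not pass with no limit on hair cell genes (0.93, edgeR adjusted p = 0.19), with at least 2 panel genes (1.15, 0.091) or with at least 5 (1.20, 0.13). Nr2f1 did not pass without cochlear replicate 1, 3 or 5 or vestibular replicate 1, 3 or 4. It also did not pass with 0 hair cell genes (0.53) or without cells bearing markers of other types (0.34), and was at −0.39 with at least 4 panel genes. In the senescence and inflammation list, 3 of 11 tested were higher in the vestibule, 0 in the cochlea and 8 did not pass, beside the same shares of all genes. The 3 were Cdkn1c (−2.14 ± 0.30) and Cdkn1a (−1.48 ± 0.41), inhibitors of the cell cycle, and Cxcl12, a chemokine (−2.34 ± 0.32). Cdkn1a, whose organs overlapped, did not pass without cochlear replicate 1, 4 or 5 or vestibular replicate 1 or 3, and was at −0.78 without vestibular replicate 3. It also did not pass with no limit on hair cell genes (−0.78), under 10% mitochondrial UMIs (−1.42) or at 2000 UMIs or more (−1.52).

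Other stromal cells, with UMIs in at least 3 of Dcn, Lum, Col1a1, Col1a2, Col3a1 and Pdgfra and fewer than 3 panel genes, served to ask whether the organ difference was particular to panel cells. They numbered 456 in the cochlea and 433 in the vestibule, and 251 of 4620 genes (5.43%) differed between the organs, 111 higher in the cochlea (2.4%) and 140 in the vestibule (3.03%). The difference of the 2 organ differences passed for 182 of 6642 genes (2.74%), 96 toward the cochlea in panel cells (1.45%) and 86 toward the vestibule (1.29%). Of the 570 genes that differed between the organs in panel cells, 558 were in this test and 107 passed it. With the replicate number in place of the library as the block 93 passed. Leaving out cochlear replicate 3 gave 366 genes, and leaving out vestibular replicate 4 gave 60.

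Gap junction genes stood among these. In panel cells Gjb2 was at 3997, 1077, 1481 and 2136 CPM in the cochlea and at 1958, 1438, 1313 and 1514 CPM in the vestibule, whereas in other stromal cells it was lower in the cochlea (log2 fold change −3.43, edgeR adjusted p = 2.7e-05). The organ difference of Gjb2 in panel cells did not pass (log2 fold change 0.35, edgeR adjusted p = 0.62). The difference of the differences was 3.58 (edgeR adjusted p = 0.00022). For Gjb6 it was 2.99 (edgeR adjusted p = 0.0031), for Car3 3.05 (0.0018), for S100b 2.23 (0.0074) and for Fxyd6 1.83 (0.0074), all toward the cochlea in panel cells. Such a difference need not mean a higher level in cochlear panel cells. Between the organs in panel cells neither Gjb6 nor Car3 was called. S100b was lower in cochlear panel cells, as given above, and lower still in other stromal cells (log2 fold change −3.59). Fxyd6 was higher in cochlear panel cells. For Coch it was −2.29 (0.0031), toward the vestibule, and −1.36 (0.086) with at least 4 panel genes required, where it did not pass. Of the 33 respiratory chain genes, 8 differed toward the cochlea in panel cells and none toward the vestibule, beside 1.45% and 1.29% of all genes. The 8 became 0 to 19 when single libraries were left out (0 without vestibular replicate 3, 1 without vestibular replicate 4 or cochlear replicate 5, 2 without vestibular replicate 1, 5 without cochlear replicate 4 and 19 without cochlear replicate 3). With the replicate block in place of the library block 1 of the 33 passed, and with at least 4 panel genes 0. Other stromal cells also differed between the organs in panel and marker genes. Ppp1r1a (log2 fold change −5.10), Gm525 (−3.89), S100b (−3.59), Otos (−2.48) and Nat8f1 (−2.15) were lower in the cochlea there, and Kcnk2 (−0.52) did not pass. The part of this in the interaction was not tested.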

How the data were processed

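The authors aligned and counted the libraries with Cell Ranger (version 6.1.2 in the submitters' processing notes; 5.0.1 in the file headers of replicates 1 and 2, 6.1.2 in the others) on mm10 (GRCm38), and deposited UMI counts of 32285 genes per barcode. Kept barcodes had 200 or more genes, 1000 or more UMIs and a mitochondrial share under 25%. Doublets were not removed. No panel cell barcode was shared between other pairs of libraries, of which no pair shared more than 41 barcodes. The members and gene lists were chosen with earlier results of these data known.

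Panel cells were clustered with scanpy 1.11.5 (1500 variable genes without rule genes and named markers, 15 components, 15 neighbours, Leiden resolution 0.6), and a cluster over 2000 CPM of Fxyd2 or 10000 CPM of Otos gave the 2 named groups. Panel cells against other cells are descriptions on log2(CPM + 1). Organs were compared on UMIs summed per library with edgeR 4.0.16, and the code was tested on simulated data. Libraries are pools of mice, so the p-values measure the spread between libraries. Deviations of same-numbered cochlear and vestibular libraries from their organ means correlated at 0.19, 0.21, 0.31 and 0.17 and no library correlated better with another number, so the replicate number was taken as a pairing, and the blocked fit is given where it moves a count by over 1.5 times or changes a call. Named genes were the rule genes and named markers, the 15 leading and 10 most abundant genes, up to 4 abundant and 3 called members per direction of each list with members at 0, and the 10 genes per direction with the largest fold change among those past the threshold without overlap, leaving out 4 that were over 4 times higher in other cells. Genes that led a cluster and were not named by this rule, the Slc4a genes, Trf, Car14, Slc12a2 and the 6 genes given for the interaction were chosen after their values were seen. Alternatives changed the scaling, filter, test (DESeq2 1.42.0), rule, depth and libraries. Some items are not reported here.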

Additional observations from a re-analysis of the deposited data

Results flagged for a closer look

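In 55 groups of 4 libraries looked at, 5 held a value far from the other 3, where chance gives about 1 in 20. Foxf2 was at 54.8 CPM in cochlear replicate 1 and at 23.1 to 27.5 CPM in the other cochlear libraries. Rbp4 was at 22.3 CPM in cochlear replicate 3 and at 0 to 2.15 CPM in the others, and its log2 fold change between the organs, −6.83, was −10.14 without that library. The other 3 rest on few UMIs in replicate 3: Epyc and Tdrd12 at 0.618 CPM in the vestibule and Slc30a10 at 2.34 CPM in the cochlea, each with the other libraries at 0. Without that library the log2 fold change of Slc30a10 went from −4.76 to −7.48, that of Epyc from 9.78 to 11.11 and that of Tdrd12 from 7.32 to 8.67, fitted values against an organ then at 0 UMIs, which are no bounds.

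Of 26 named genes looked at, the organ difference of 8 differed between panel cells and other stromal cells by the edgeR interaction test, beside 2.74% of 6642 genes, and 6 of the 26 had been chosen for this difference after their values were seen. The difference of the log2 fold changes was 6.18 for Epyc (adjusted p = 0.026), 3.14 for Ucma (0.020), 2.23 for S100b (0.0074), −2.29 for Coch (0.0031), 1.83 for Fxyd6 (0.0074), 3.58 for Gjb2 (0.00022), 2.99 for Gjb6 (0.0031) and 3.05 for Car3 (0.0018). S100b and Ucma were lower in the cochlea in both populations, by less in panel cells, and Gjb2, Gjb6 and Car3 were not called between the organs in panel cells. With at least 4 panel genes Epyc, Ucma and Coch did not pass, Coch at −1.36 (adjusted p = 0.086). Ucma did not pass with the replicate block in place of the library block (3.15, adjusted p = 0.070) or without cochlear replicate 4 or 5 or vestibular replicate 3 or 4, and was at 7.11 without cochlear replicate 3. Epyc did not pass without cochlear replicate 5 or vestibular replicate 3 or 4. The panel transcripts of the cells that pass the rule differed between the organs, as did those of other stromal cells. The part of either in these values was not tested.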

How the results depend on the processing

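The organ comparison of panel cells called 570 genes. It called 563 with RLE or upper quartile scaling, 595 with DESeq2, 1132 with no filter on low counts, 857 with the replicate block, 173 with at least 4 panel genes and 1529 with at least 2, 231 with 0 hair cell genes, 97 with each cell thinned to 1000 UMIs, 902 without cells bearing markers of other types and 66 with at least 5 panel genes (tried after seeing the data), and from 316 (without vestibular replicate 3) to 813 (without cochlear replicate 1) with 1 library left out. Fewer genes were tested at 4 or 5 panel genes, with 0 hair cell genes and after thinning. The comparison of other stromal cells called 251 genes, and 151 (without vestibular replicate 3) to 273 with 1 library left out. It called 244 genes with the replicate block. The interaction called 182 genes, 345 with no filter, 93 with the replicate block in place of the library block, 113 with at least 4 panel genes, and 60 to 366 with 1 library left out, 366 without cochlear replicate 3, 112, 66 and 60 without vestibular replicate 1, 3 and 4, and 110 and 66 without cochlear replicate 4 and 5. Neither the cause of these shifts nor the part of cell makeup was tested.

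The mean share of panel cells was 5.08%, 10.3% with at least 2 panel genes, 3.12% after thinning, and 4.57% to 5.61% with 1 library left out. The log2 fold change of Otos between the organs, −0.27, reversed to 0.74 with at least 4 panel genes and 0.93 with at least 5, and ranged from −1.06 (without cochlear replicate 5) to 0.058 (without cochlear replicate 1) with 1 library left out. Nr2f1, at 1.03, reversed to −0.39 and −1.01 with at least 4 and 5 panel genes, and Egr1, at 1.48, to −0.032 with at least 5, and no reversed value passed the threshold. Over named genes and alternatives, 1089 values kept their direction and side of the threshold, 119 fell short of it and 6 reversed. In the 53 organ differences and 8 interactions of named genes that were refitted with the replicate block, the call changed for the interaction of Ucma alone. Fxyd2-rich cells numbered 180 and Otos-rich cells 43, and other clustering settings, also tried after seeing the data, gave 138 to 183 and 41 to 43.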

Other observations

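Cells with at least 10 Otos UMIs were far more frequent in the vestibular libraries than in the cochlear ones and mostly failed the panel rule there. Of 10424 vestibular cells, 1030 (9.88%) had at least 10 Otos UMIs, and 134 of these were panel cells. In the cochlea it was 160 of 7272 cells (2.20%). By library the share was 7.96%, 11.7%, 8.09% and 7.54% in the vestibule and 1.05%, 1.91%, 2.88% and 3.95% in the cochlea, so the organs did not overlap. Fxyd2 was the reverse, with at least 10 UMIs in 101 cochlear and 13 vestibular cells. These shares depend on how each tissue was dissected, on depth and on background RNA, and were not tested. The cut of 10 UMIs was set from cochlear cells. Outside the panel cells Otos was at a mean of 1414 CPM in the vestibule and 361 CPM in the cochlea.

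Among 18 immediate early and stress genes, 13 were tested between organs in panel cells, of which 4 were higher in the cochlea, 1 in the vestibule and 8 did not pass, beside 4.55% and 4.95% of all genes. Dusp1 (log2 fold change 2.31 ± 0.30, edgeR adjusted p = 0.0002), Egr1, Fos and Junb were higher in the cochlea and Btg2 was higher in the vestibule. Junb did not pass without cochlear replicate 4 or vestibular replicate 1, 3 or 4, Fos did not pass without cochlear replicate 4 or vestibular replicate 3 or with DESeq2, and Egr1 and Btg2 did not pass without vestibular replicate 3. With at least 4 panel genes Egr1 and Junb did not pass, and with at least 5 Fos did not either. Junb did not pass with 0 hair cell genes, and Btg2 with at least 2 panel genes or no limit on hair cell genes. Dusp1, a phosphatase induced by stress, was at 314, 131, 209 and 170 CPM in the cochlea and at 42.5, 44.5, 21.8 and 38.7 CPM in the vestibule.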
